A study of Mus musculus with 27 samples.

Results

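Whole mouse embryonic stem (ES) cells sampled 10 days after loss of Dicer were compared with the same kind of cells at 8 days, the late step of a time course. The compared libraries are 6 of the 27 of the series, chosen by their labels alone: whole cell day 10 with 3 libraries and whole cell day 8 with 3 libraries. Both groups were made from DTCM23/49 cells, an XY line that carries a conditional Dicer allele, grown on gelatin with 10% fetal bovine serum and leukemia inhibitory factor (LIF). In both, 4-hydroxytamoxifen at 800 nM had removed the part of Dicer that encodes an RNase III domain, Dicer-deficient colonies had been picked and expanded, and cells were passaged every few days. Ethanol at 0.1% is the control treatment named in the labels, but no library after day 0 is labelled as such a control. Days after Dicer loss, days in culture and outgrowth from picked colonies cannot be told apart here. Whole cell day 4 and whole cell day 0, with 3 libraries each, served to say what a gene had done before day 8. They and the 3 whole cell libraries labelled day 12 also entered the fit. The SE and p-value of a change between day 8 and day 10 therefore draw on the spread within each day of 15 whole cell libraries. The question put to the data was which of the earlier changes went on, stopped or turned back between day 8 and day 10, and which genes moved in that step that had not moved before.

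Dicer is the endonuclease that cuts hairpin precursors into mature microRNAs, short RNAs that pair through their seed, bases 2 to 8, with sites in the 3′ untranslated regions (UTRs) of mRNAs and lower their level and translation. Mouse ES cells depend for most of their mature microRNA on the miR-290 cluster, with the miR-302 cluster coming up as cells leave the naive state, and these families are known for restraining inhibitors of the G1 to S transition such as Cdkn1a (p21), Rbl2 and Lats2. ES cells without Dicer or Dgcr8 are known to survive, to cycle more slowly and to fail to silence the pluripotent state when induced to differentiate.

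The sequences that tie the listed microRNA targets to this background are given first, from RefSeq on GRCm38.p6, with the seed in capitals. Of the 9 mature 3p microRNAs of both clusters in that table, 5 shared 1 seed and are shown.
mmu-miR-291a-3p (chr7:3218968-3218989, plus strand): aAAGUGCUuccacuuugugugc
mmu-miR-294-3p (chr7:3220691-3220712, plus strand): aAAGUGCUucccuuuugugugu
mmu-miR-295-3p (chr7:3220815-3220837, plus strand): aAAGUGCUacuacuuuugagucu
mmu-miR-302b-3p (chr3:127545275-127545297, plus strand): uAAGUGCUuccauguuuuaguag
mmu-miR-302d-3p (chr3:127545665-127545687, plus strand): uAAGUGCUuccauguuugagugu
An 8-mer match to this seed, AGCACTTA read on the mRNA strand, stood in the 3′ UTR of 11 of the 26 listed targets that were tested, 6 of them higher on day 10 and 1 lower. The sites of 5 of these genes follow, read 5′ to 3′ on the mRNA strand from GENCODE M21 transcripts on GRCm38, with the 8-mer in capitals and its coordinates in brackets. Each lies in a 3′ UTR. The match is a description of the letters and says nothing of whether the site is used.
Tgfbr2 (chr9:116087771-116087778, minus strand): tcaaaacctaaAGCACTTAttttcaatcta
Rbl2 (chr8:91123830-91123837, plus strand): tttttcaataaAGCACTTAtaaatta
Cdkn1a (chr17:29100500-29100507, plus strand): gtgggtgtcaaAGCACTTAgtgggtctgac
Lats2 (chr14:57691086-57691093, minus strand): agtatggaaagAGCACTTAttttgtggata
Lefty1 (chr1:180938213-180938220, plus strand): actgtatgcgaAGCACTTAcatgtatagat
The first 4 were higher on day 10 than on day 8 and Lefty1 was lower, with values given below.

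Levels are FPKM, the fragments of a gene scaled for its length and the size of the library, as the authors deposited them. The 6 libraries summed to 365532 to 383281 FPKM and held 12762 to 12990 genes at 1 FPKM or more. Pearson's r over log values across genes was 0.980 to 0.984 between libraries of 1 day and 0.972 to 0.976 between libraries of different days. Steps between low values put the depth of these libraries at 0.839 to 1.27 times that of day 8 replicate 1, with means of 0.974 on day 10 and 1.11 on day 8. The targeted gene, Dicer1, stood at 1.90, 1.90 and 1.68 FPKM on day 10, against 1.67, 1.56 and 1.90 FPKM on day 8, and the groups overlapped (2-sided exact permutation test p = 0.300, where 3 against 3 cannot go below 0.1). Day 0 had 16.3 ± 1.47 FPKM of Dicer1 (SD, n = 3). The 3 libraries labelled day 12 of whole cells had 14.6 ± 1.77 FPKM (SD, n = 3), against their label, and they enter here through the estimate of the spread and through the filter on low genes, which passed 15991 genes with them and 15755 without. The labels call the libraries biological replicates with no word on separate cultures, so a p-value measures the spread between these libraries, which may be technical.

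The cells kept the defining genes of ES cells on both days. Pou5f1 (Oct4), the central pluripotency factor, averaged 385 ± 20.1 FPKM on day 10 and 427 ± 25.9 FPKM on day 8, and its partner Nanog 196 ± 6.67 and 216 ± 5.49 FPKM (SD, n = 3 each). All 26 genes of a core and naive pluripotency list were at 1 FPKM or more on both days, and they summed to 3254 to 3479 FPKM on day 10 and 3644 to 3963 FPKM on day 8. Markers of other cells were present as well and summed higher on day 10 for most lists. The 25 fibroblast and smooth muscle markers summed to 1419 to 1442 FPKM on day 10 and 1062 to 1095 FPKM on day 8, and without Vim and Acta2 to 731 to 744 FPKM on day 10 and 616 to 637 FPKM on day 8. The sum of 17 trophoblast and simple epithelium markers was 584 to 617 FPKM on day 10 and 470 to 520 FPKM on day 8, and that of 22 endoderm markers 471 to 473 and 319 to 346 FPKM, with Ttr listed at 0 on both days. Without Sparc the endoderm sums overlapped, at 128 to 143 FPKM on day 10 and 96.6 to 135 FPKM on day 8. A sum follows its most abundant members, and the counts by member given further down include members called in either direction. The 16 mesoderm markers reached 25.4 to 26.7 FPKM on day 10 and 19 to 21.1 FPKM on day 8, and 13 blood and endothelial markers 60.7 to 62.2 and 43.4 to 45.4 FPKM, with Ptprc listed at 0 on day 10 and Adgre1 on day 8. The 13 neuroectoderm markers went the other way, with 93.4 to 94.8 FPKM on day 10 and 104 to 112 FPKM on day 8. In bulk RNA a change in the number of cells of a type and a change in RNA per cell cannot be told apart, and the part of these other cells in the results was not tested.

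Of 15991 genes tested with limma on the log2(FPKM + 0.5) scale, 831 were higher on day 10 (5.20%) and 518 were lower (3.24%) at an adjusted p under 0.05, 1349 in all (8.44%). The median change of all genes was 0.02 on the log2 scale. The 3 libraries of day 10 did not overlap the 3 of day 8 for 830 of the 831 higher and 516 of the 518 lower genes, where 37.7% of all genes did not overlap. Most changes were small. The median was 0.66 among the higher and -0.56 among the lower genes, and a change of at least 1 was reached by 122 higher and 62 lower genes. Of the called genes 61.6% were higher, a share that was 51.1% after quantile normalization (813 higher, 779 lower) and 58.3% after median-of-ratios scaling (776 and 555). Without any 1 of the 6 libraries 415 to 557 genes were higher and 236 to 275 lower, the fewest higher without day 8 replicate 1. Leaving out a library tends to raise the SE, so fewer calls are to be had whichever is left out. A call lost in this way does not show that it hangs on that library. With the 6 libraries alone, where the spread of the other days does not enter, 1663 genes were higher and 1171 lower. A set of 491 calls, 330 higher and 161 lower, passed in all 16 alternative settings, and no call changed sign in any. Below, changes are day 10 minus day 8 on the log2(FPKM + 0.5) scale ± SE with the adjusted p of limma, and a called gene named without a remark on its call passed in all 16 settings. A range of adjusted p beside a gene is over these 16, which were other pseudocounts, filters, scalings and sets of libraries. Libraries named beside a lost call are those whose omission ended it, and calls lost in settings that keep all 6 libraries lie within the range of p. Counts of a list without 1 library are ranges over the 6 fits that leave 1 out. Every count of called list members is to be read beside the 5.20% higher and 3.24% lower of all genes tested. Of 12823 protein-coding genes alone 759 were higher and 489 lower (9.73% called). The shares of all genes are therefore somewhat low for lists of protein-coding genes. Lists with few calls in a direction can lie near these shares. A change of pace has no value with the 6 libraries alone, so its ranges are over 15 settings.

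**Figure D1:**
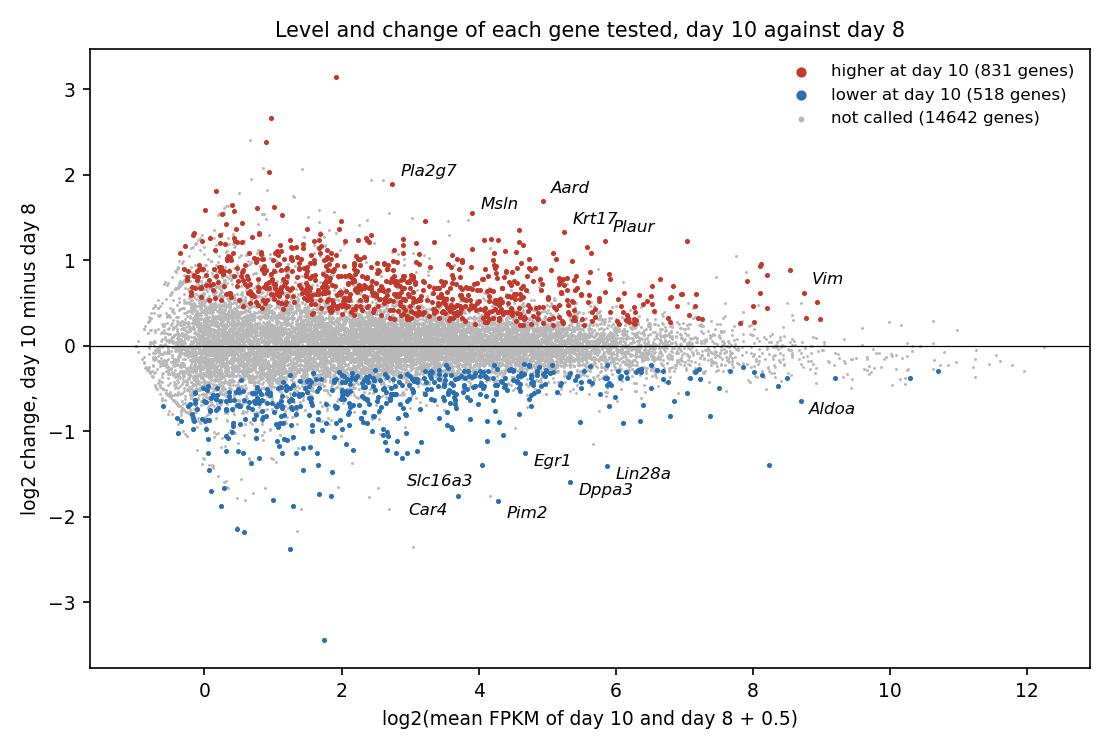
Each point is 1 of the 15991 genes tested, with its mean level over day 10 and day 8 on the horizontal axis (log2 of FPKM + 0.5) and its change, day 10 minus day 8, on the vertical axis (log2 scale). Red points are the 831 genes higher on day 10, blue points the 518 lower on day 10 and grey points genes not called.

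The genes named here for their size of change were called, reached 2 FPKM on 1 of the days, had a unique symbol and no overlap between day 10 and day 8 libraries, and were no predicted models or pseudogenes. Pla2g7 (chr17:43568098-43612201 on GRCm38), which encodes a secreted phospholipase that clears platelet-activating factor, had 10.8, 9.51 and 9.59 FPKM on day 10, against 2.48, 2.44 and 2.05 FPKM on day 8 (1.89 ± 0.12, adjusted p = 5.53e-06). Aard had 49.5, 46.7 and 42.3 FPKM on day 10, against 15.5, 13.3 and 13.2 FPKM on day 8 (1.69 ± 0.16, adjusted p = 7.64e-05). Robo4, a roundabout receptor best known from endothelium, had 2.97, 2.50 and 2.13 FPKM on day 10, against 0.487, 0.618 and 0.358 FPKM on day 8 (1.62 ± 0.16, adjusted p = 0.000119). In each of these 3 genes the lowest day 10 library exceeded the highest day 8 library by more than 2-fold. Wnt3a, a ligand of the canonical Wnt pathway, had 2.39, 2.06 and 1.76 FPKM on day 10, against 0.446, 0.306 and 0.266 FPKM on day 8 (1.61 ± 0.15, adjusted p = 7.07e-05). Msln, the surface glycoprotein mesothelin, had 24.0, 20.0 and 21.7 FPKM on day 10, against 7.13, 7.37 and 6.96 FPKM on day 8 (1.55 ± 0.17, adjusted p = 0.000236). Lox, lysyl oxidase, which cross-links collagen and elastin, had 5.95, 5.18 and 4.88 FPKM on day 10, against 1.89, 1.56 and 1.44 FPKM on day 8 (1.46 ± 0.16, adjusted p = 0.000239). Msln and Lox had been below 1 FPKM on day 0, with means of 0.773 and 0.254 FPKM.

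Transcripts of a pair of enzymes on the way from arachidonic acid to prostaglandin E2 rose. Ptgs2 (cyclooxygenase 2) had 3.83, 3.36 and 3.43 FPKM on day 10, against 1.04, 0.992 and 1.21 FPKM on day 8 (1.36 ± 0.20, adjusted p = 0.00133). Ptges, a prostaglandin E synthase, had 4.39, 4.34 and 3.50 FPKM on day 10, against 1.21, 1.60 and 1.23 FPKM on day 8 (1.31 ± 0.13, adjusted p = 0.000111). Absence of overlap between the days was a condition for naming these genes and is no added support. Krt17, an epithelial keratin, had 57.6, 52.4 and 52.4 FPKM on day 10, against 21.1, 21.3 and 21.0 FPKM on day 8 (1.33 ± 0.12, adjusted p = 4.35e-05). Pglyrp1, a peptidoglycan recognition protein, had 6.18, 3.23 and 5.97 FPKM on day 10, against 1.36, 1.42 and 2.16 FPKM on day 8 (1.36 ± 0.23, adjusted p = 0.00373). Cavin3, a coat protein of caveolae, had 12.7, 13.3 and 13.3 FPKM on day 10, against 3.27, 5.25 and 5.12 FPKM on day 8 (1.46 ± 0.33, adjusted p = 0.0183). The call of Cavin3 was lost without day 8 replicate 1 or without any 1 of the day 10 libraries, and its adjusted p was 0.00169 to 0.0836 over the 16 settings. The microRNA gene Mir5136 was listed at 0 in every day 8 library and at 1.85, 4.82 and 2.06 FPKM on day 10 (adjusted p = 0.0429, 0.00219 to 0.163 over the settings), and this call was lost without any 1 of the 6 libraries. A numbered lincRNA without a symbol, linc1635, had a larger fitted rise than Pla2g7 and was chosen after its values were seen. It had 2.39, 3.12 and 2.00 FPKM on day 10, against 0, 1.03 and 0 FPKM on day 8 (2.03 ± 0.50, adjusted p = 0.0259, 0.00981 to 0.105 over the settings). Its call was lost with a pseudocount of 0.1 and without any 1 library except day 8 replicate 2.

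The falls were chosen in the same way. Lin28a (chr4:134003330-134018841 on GRCm38), the RNA-binding protein that blocks maturation of let-7 precursors, had 32.6, 28.4 and 33.8 FPKM on day 10, against 82.2, 90.1 and 81.4 FPKM on day 8 (-1.41 ± 0.07, adjusted p = 1.13e-06). Dppa3 (Stella), a maternal factor and marker of the naive state, had 18.7, 19.1 and 20.5 FPKM on day 10, against 64.1, 55.7 and 60.5 FPKM on day 8 (-1.60 ± 0.16, adjusted p = 8.56e-05). Pim2, a serine/threonine kinase that promotes survival and growth, had 9.74, 7.61 and 7.11 FPKM on day 10, against 28.3, 30.7 and 30.4 FPKM on day 8 (-1.82 ± 0.11, adjusted p = 5.53e-06). In these 3 genes the highest day 10 library held less than the lowest day 8 library by more than 2-fold. Vrtn, vertnin, known in pigs for its link to the number of vertebrae, had 0.584, 0.559 and 0.477 FPKM on day 10, against 3.03, 3.78 and 3.22 FPKM on day 8 (-1.88 ± 0.22, adjusted p = 0.000337). Car4, a carbonic anhydrase of the outer cell membrane, had 5.64, 5.04 and 5.57 FPKM on day 10, against 19.2, 21.6 and 18.0 FPKM on day 8 (-1.76 ± 0.14, adjusted p = 1.35e-05). Slc16a3, the lactate exporter MCT4, had 8.45, 8.03 and 9.35 FPKM on day 10, against 22.5, 24.2 and 23.6 FPKM on day 8 (-1.40 ± 0.09, adjusted p = 5.91e-06). Each of the 3 had a day 10 mean under that of day 8 by more than 2-fold.

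Further large falls were those of Pga5, a pepsinogen (-1.74 ± 0.14, adjusted p = 3.02e-05), Ly6g6e of the Ly6 family (-1.48 ± 0.25, adjusted p = 0.00342), Stmn4, a stathmin that binds tubulin (-1.45 ± 0.21, adjusted p = 0.00147), and Fndc3c1 (-1.39 ± 0.25, adjusted p = 0.00444). Each was under 2 FPKM in every day 10 library. Spink1, a secreted trypsin inhibitor, had 0.665, 1.74 and 1.11 FPKM on day 10, against 6.20, 3.72 and 5.23 FPKM on day 8 (-1.76 ± 0.45, adjusted p = 0.0317, 0.00495 to 0.123 over the settings), and the call was lost without any 1 of the 6 libraries. Mir1957a was listed at 0 in all day 10 libraries and at 9.32, 5.49 and 2.23 FPKM on day 8 (adjusted p = 0.0342, 0.00234 to 0.129 over the settings). That call was lost without day 8 replicate 1, without day 8 replicate 2 or without any day 10 library. Values of such short microRNA genes in a polyadenylated library count precursor or host sequence, not the mature microRNA.

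**Figure D2:**
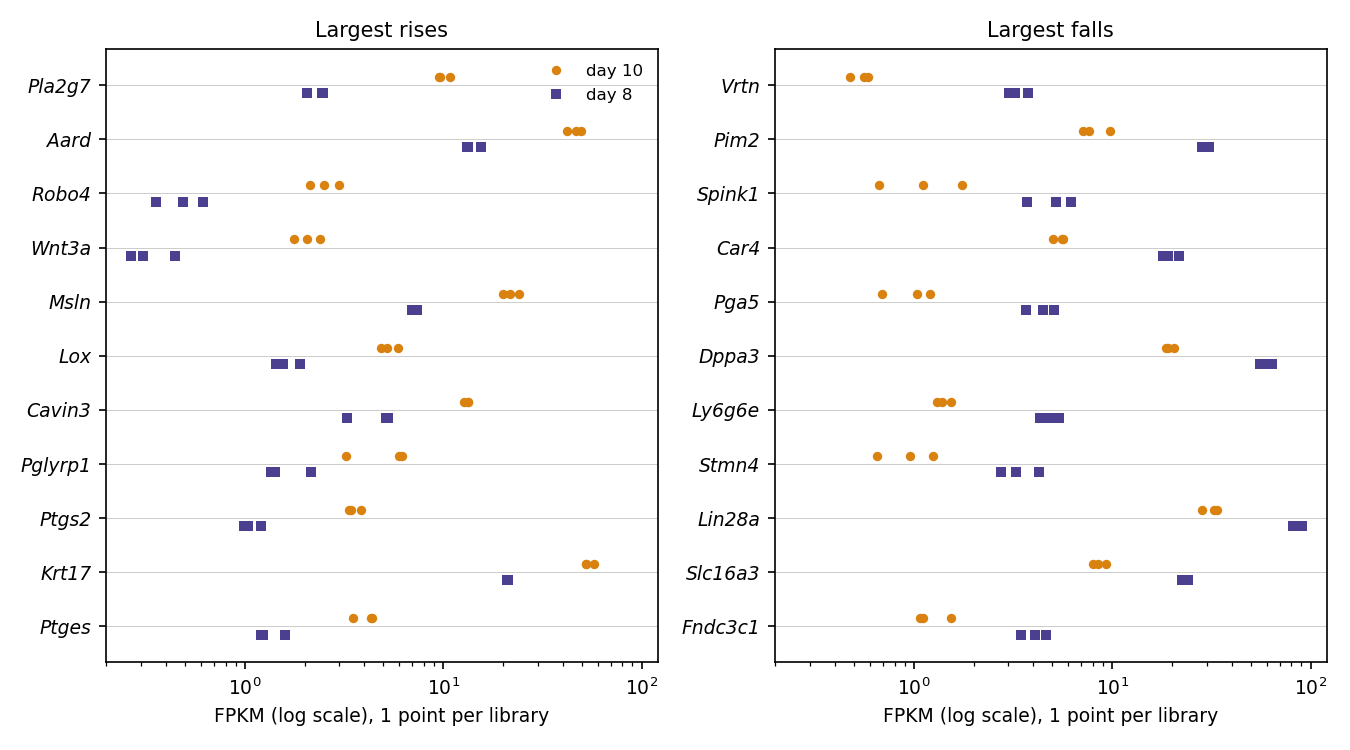
FPKM of each library, on a log axis, for the genes with the largest rises and the largest falls between day 8 and day 10, 1 point per library with day 10 and day 8 in different colours and without the microRNA genes listed at 0 on 1 of the days. In Lin28a the 3 day 10 libraries sit at 28.4 to 33.8 FPKM and the 3 day 8 libraries at 81.4 to 90.1 FPKM.

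Most genes that had changed by day 8 were not called further by day 10. Of the 3230 genes higher on day 8 than on day 0 (20.2% of those tested), 463 (14.3%) went on and were higher again on day 10, 2680 (83.0%) were not called further, and 87 (2.69%) turned back. Of the 1539 genes lower on day 8 (9.62%), 166 (10.8%) went on, 1332 (86.5%) were not called further and 41 (2.66%) turned back. Both comparisons use the same day 8 libraries, so a library that stands high or low moves a gene towards turning back. Counts against day 0 also rest on the day 0 values. The pseudogene Gm11410, chosen after its values were seen, was at 0 FPKM in each day 0 library and at 39.5 to 60.5 FPKM on day 4. Whether near-identical copies were counted alike on day 0 and later was not tested. The comparison of day 4 with day 0 shares no library with that of day 10 with day 8. Of its 780 higher genes (4.88% of those tested) 121 (15.5%) were higher again on day 10 than on day 8 and 14 (1.79%) lower, against 5.20% and 3.24% of all genes tested. Of its 291 lower genes (1.82%) 32 (11%) were lower again and 12 (4.12%) higher. With protein-coding genes and lncRNAs alone, 106 of the genes higher on day 4 went on, 212 were not called further and 8 turned back. For the genes lower on day 4 these counts were 23, 158 and 5, so the shares depend on the classes of gene counted. Conversely, 312 of the 831 higher and 258 of the 518 lower genes had been called on neither day 4 nor day 8 against day 0. A gene not called further is one whose late change missed the threshold, which does not show that it stopped.

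**Figure D3:**
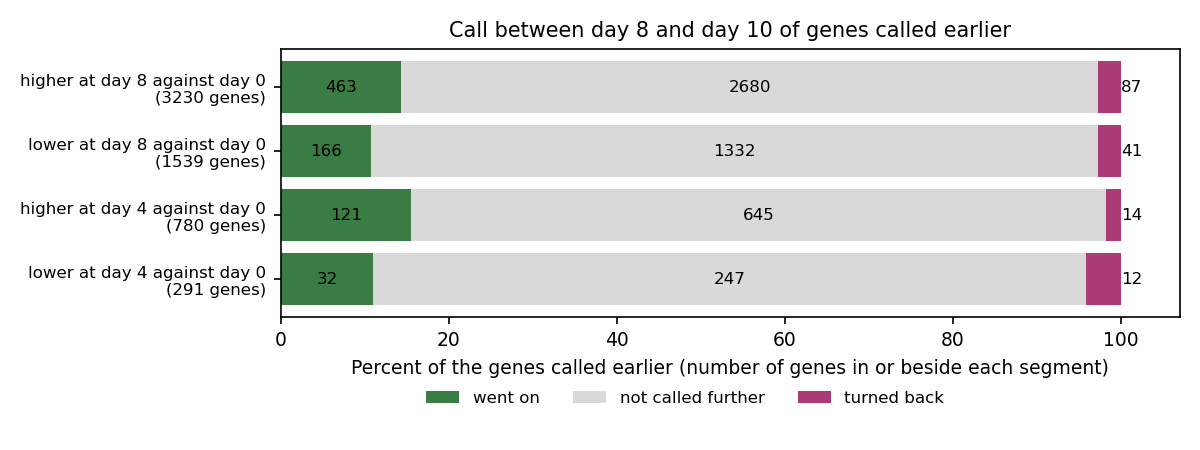
For the genes called higher or lower on day 8 and on day 4 against day 0, each bar gives the percent that went on, was not called further or turned back between day 8 and day 10, with the number of genes. The longest segment of each bar is the one not called further, between 82.7% and 86.5% of the genes.

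A change of pace at day 8 was tested directly, as the log2 change per day from day 8 to day 10 minus that from day 4 to day 8. It was called in 334 genes (2.09%), higher in 157 (0.982%) and lower in 177 (1.11%), and in 85 to 199 genes without any 1 of the 6 libraries. Day 4 replicate 3 stood apart, with an FPKM sum of 459892 against 383136 and 362396 in replicates 1 and 2. It held 12218 genes at 1 FPKM or more, against 12738 and 12771. No setting left out a day 4 library, so its part in the pace calls and in the day 4 counts above was not tested. Among the 177, 141 were lower on day 10 than on day 8. The other 36 were not called after day 8 and had risen between day 4 and day 8, where 13.2% of all genes tested had. A gene with a called lower pace and no late call nearly has to have risen before, so this is no added support. Rhob, a small GTPase, is one of the 36, chosen after its values were seen. It had 51.1, 48.5 and 48.6 FPKM on day 10, against 52.7, 52.9 and 49.9 FPKM on day 8 (-0.07 ± 0.07, adjusted p = 0.643). Its mean had been 12.9 FPKM on day 0 and 12.5 FPKM on day 4, with a rise of 2.01 on the log2 scale from day 4 to day 8 (pace change -0.54, adjusted p = 0.000167). Klf6, a zinc finger factor also chosen after its values were seen, had 35.8, 33.5 and 32.5 FPKM on day 10, against 37.6, 38.9 and 36.1 FPKM on day 8, with 19.9 FPKM on day 4 (pace change -0.30, adjusted p = 0.0130, 0.00933 to 0.0769 over the 15 settings). Its pace call was lost without day 8 replicate 1 or replicate 2. Among the 157, 140 were higher on day 10. The other 17 were not called after day 8 and had fallen between day 4 and day 8, where 6.72% of all genes had, which their selection again nearly fixes.

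Of the 87 genes that were higher on day 8 and turned back, 15 were still called above day 0 on day 10, 68 were not called against day 0 and 4 were called below it, and 60 had a called change of pace. Actc1, cardiac actin, had 2.86, 3.40 and 3.96 FPKM on day 10, against 9.03, 7.09 and 7.91 FPKM on day 8 (-1.13 ± 0.21, adjusted p = 0.00572), after means of 0.863 FPKM on day 0 and 1.06 FPKM on day 4. Egr1, an immediate early zinc finger factor, had 14.7, 13.7 and 15 FPKM on day 10, against 35.0, 37.0 and 34.3 FPKM on day 8 (-1.26 ± 0.20, adjusted p = 0.00216), and its day 10 mean lay below the 20.6 FPKM of day 0. Il33, an alarmin cytokine stored in the nucleus, had 1.26, 0.826 and 0.867 FPKM on day 10, against 2.98, 3.18 and 2.96 FPKM on day 8 (-1.26 ± 0.16, adjusted p = 0.000559), with 1.18 FPKM on day 0. Absence of overlap was a condition for naming these genes too. Mycl, a Myc family factor, had 3.82, 3.63 and 3.33 FPKM on day 10, against 8.49, 10.1 and 9.14 FPKM on day 8 (-1.25 ± 0.09, adjusted p = 1.35e-05). Neurog1, a proneural factor, had 2.20, 1.33 and 2.26 FPKM on day 10, against 4.54, 5.03 and 3.99 FPKM on day 8 (-1.07 ± 0.15, adjusted p = 0.000897), and Dll1, a Notch ligand, had 0.788, 0.703 and 0.984 FPKM on day 10, against 2.36, 2.45 and 2.23 FPKM on day 8 (-1.11 ± 0.17, adjusted p = 0.00172). On day 0 Neurog1 had been near its day 10 level, at 1.88 FPKM, while Dll1 had 1.22 FPKM, above each of its day 10 libraries.

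Of the 41 genes that were lower on day 8 and turned back, 3 were still called below day 0 on day 10, 36 were not called against it and 2 were called above it, and 24 had a called change of pace. Rhd, a blood group protein of the ammonium transporter family, had 4.49, 3.22 and 4.91 FPKM on day 10, against 2.12, 1.97 and 2.03 FPKM on day 8 (0.87 ± 0.14, adjusted p = 0.00201), after 3.85 FPKM on day 0 and 5.21 FPKM on day 4. H2afj, a histone H2A variant, had 32.3, 28.0 and 31.0 FPKM on day 10, against 17.2, 20.6 and 17.9 FPKM on day 8 (0.70 ± 0.11, adjusted p = 0.00240), after 35.2 and 37.4 FPKM on days 0 and 4. Blvrb, biliverdin reductase B, had 22.9, 27.6 and 23.0 FPKM on day 10, against 14.7, 15.1 and 15.3 FPKM on day 8 (0.68 ± 0.12, adjusted p = 0.00465). In these 3 genes day 8 was the lowest of the 4 days. Mir5136, given above, was also of this kind. The small nucleolar RNA host Snhg11 (0.67 ± 0.19, adjusted p = 0.0438, 0.0179 to 0.152 over the settings) and Tmem262 (0.67 ± 0.18, adjusted p = 0.0367, 0.0256 to 0.145) completed the 6 named. Snhg11 lost its call without any 1 of the 6 libraries, and Tmem262 without day 8 replicates 1 or 2 or day 10 replicates 1 or 3.

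**Figure D4:**
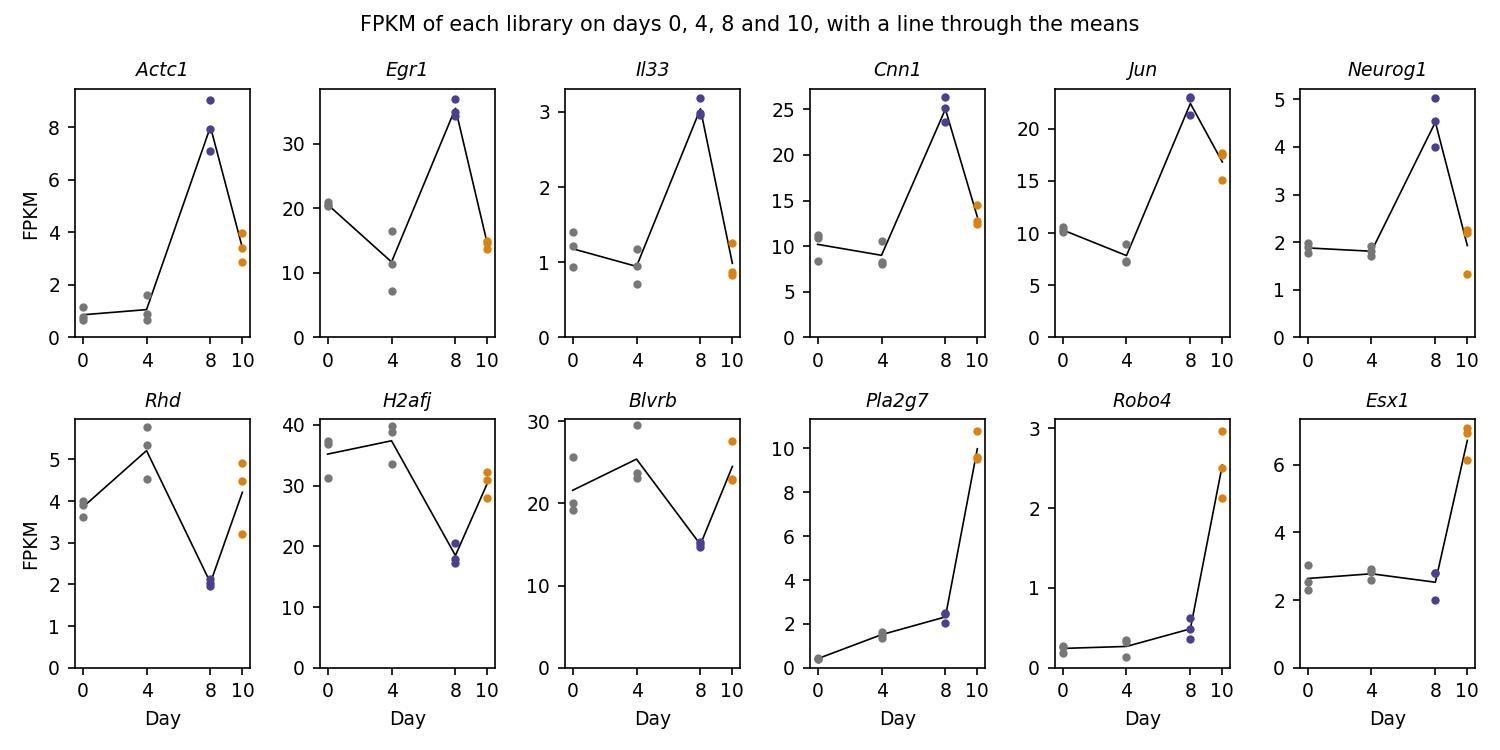
FPKM of each library of days 0, 4, 8 and 10, 1 panel per gene, with a line through the daily means and each vertical axis starting at 0. The top row holds genes that were highest on day 8 (Actc1, Egr1, Il33, Cnn1, Jun and Neurog1) and the bottom row genes that rose after day 8, 3 of them from a low on that day (Rhd, H2afj and Blvrb) and 3 with most of their rise after it (Pla2g7, Robo4 and Esx1).

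Part of the genes listed as miR-290 or miR-302 targets rose again. Of 26 listed targets tested, 10 were higher on day 10 than on day 8 and 2 were lower, where 5.20% and 3.24% of all genes were. The median change of the list was 0.23, where all genes had 0.02. Between day 0 and day 8 the same list had 22 higher and 1 lower members and a median of 0.88. Tgfbr2, the type II TGF-beta receptor, had 4.58, 5.71 and 4.93 FPKM on day 10, against 2.60, 2.75 and 3.04 FPKM on day 8 (0.75 ± 0.13, adjusted p = 0.00458), after 0.438 FPKM on day 0. Rbl2 (p130), a pocket protein of the retinoblastoma family, had 2.75, 2.49 and 2.96 FPKM on day 10, against 1.30, 1.58 and 1.56 FPKM on day 8 (0.71 ± 0.18, adjusted p = 0.0284, 0.00733 to 0.105 over the settings). Lats2, a kinase of the Hippo pathway, had 8.63, 8.61 and 8.25 FPKM on day 10, against 5.77, 5.60 and 5.68 FPKM on day 8 (0.54 ± 0.12, adjusted p = 0.0172, 0.00203 to 0.0622). Cdkn1a, the p21 inhibitor of cyclin-dependent kinases, had 129, 132 and 138 FPKM on day 10, against 87.2, 91.7 and 89.2 FPKM on day 8 (0.57 ± 0.15, adjusted p = 0.0365, 0.000600 to 0.110). The groups did not overlap in any of these 4 genes, but the calls of Rbl2 and Cdkn1a were lost without any 1 of the 6 libraries (and Cdkn1a after median-of-ratios scaling, adjusted p = 0.0898) and that of Lats2 without any 1 except day 10 replicate 3. Rhoc, a small GTPase, had 98.5, 92.5 and 98.0 FPKM on day 10, against 63.2, 64.8 and 63.3 FPKM on day 8 (0.59 ± 0.13, adjusted p = 0.0129, 0.000484 to 0.0502), with a call lost without day 10 replicate 1.

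Casp2, a caspase often given as a miR-290 target, was not called (0.31 ± 0.10, adjusted p = 0.0942). The lower members of the list were Pfkp, a phosphofructokinase (-0.45 ± 0.08, adjusted p = 0.00387), and Lefty1, an inhibitor of Nodal with the 8-mer shown above. Lefty1 had 113, 127 and 111 FPKM on day 10, against 153, 163 and 141 FPKM on day 8 (-0.38 ± 0.10, adjusted p = 0.0331, 0.0135 to 0.119 over the settings), and lost its call without day 8 replicates 1 or 2 or day 10 replicates 1 or 3. Without any 1 of the 6 libraries the list had 2 to 4 higher and 1 to 2 lower members. Across all genes, a 3′ UTR was at hand for 12728 of the 12823 tested genes that code for proteins, and 434 of these held the 8-mer. Of these 434, 34 (7.83%) were higher on day 10 and 9 (2.07%) lower, with a median change of 0.06, against 722 (5.87%), 480 (3.90%) and 0.01 among the 12294 genes without it. Between day 4 and day 8 the medians had been 0.27 with the site and 0.07 without, over 4 days where the late step has 2. Between day 0 and day 4 they had been 0.02 with the site and -0.00 without. The UTRs with a site were longer, with a median of 2807 bases against 1077, and this difference was not adjusted for. Of 19 listed let-7 targets 1 was higher, the chromatin protein Hmga2 (0.45 ± 0.11, adjusted p = 0.0202, 0.0105 to 0.0871), and 2 lower, Lin28a and Igf2bp2 (-0.46 ± 0.11, adjusted p = 0.0229, 0.00593 to 0.0949). The calls of Hmga2 and Igf2bp2 were lost when single libraries were left out, all but day 8 replicate 2 and day 10 replicate 3 for Hmga2 and all but day 10 replicate 3 for Igf2bp2. No gene of the microRNA pathway, 13 tested, was called.

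Among 22 regulators of the G1 to S transition 6 were higher and 1 lower, with a median of 0.02, equal to that of all genes. Without 1 library 2 were higher and 0 to 1 lower. Both genes of the Ink4 locus rose. Cdkn2a, which encodes p16 and p19Arf, had 19.6, 22.7 and 17.9 FPKM on day 10, against 8.54, 8.57 and 9.43 FPKM on day 8 (1.13 ± 0.11, adjusted p = 7.07e-05), and its neighbour Cdkn2b (p15) had 10.7, 11.8 and 11.8 FPKM on day 10, against 5.19, 5.38 and 4.96 FPKM on day 8 (1.07 ± 0.17, adjusted p = 0.00251). The lowest day 10 library of each stood above its highest day 8 library. Ccnd2, cyclin D2, had 27.4, 27.9 and 30.0 FPKM on day 10, against 18.7, 18.9 and 20.0 FPKM on day 8 (0.55 ± 0.15, adjusted p = 0.0360, 0.00145 to 0.113 over the settings). E2f2, a factor of the E2F family, changed by 0.64 ± 0.18 (adjusted p = 0.0487, 0.0325 to 0.191). Ccnd2 and E2f2 lost their calls without any 1 of the 6 libraries. Cdkn1c (p57), an imprinted inhibitor, went down, with 15.6, 12.1 and 13.0 FPKM on day 10, against 21.4, 26.0 and 22.2 FPKM on day 8 (-0.76 ± 0.17, adjusted p = 0.0154, 0.00469 to 0.0695), and its call was lost without day 8 replicate 2 or day 10 replicates 2 or 3. None of 28 genes of S phase and mitosis was called (median 0.02).

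Among 26 p53 targets 3 were higher and 1 lower (median 0.13). Without 1 library 1 was higher and 1 lower. The 4 called targets were Cdkn1a, the stress cytokine Gdf15 (1.01 ± 0.19, adjusted p = 0.00690), the kinase Plk2 (0.52 ± 0.15, adjusted p = 0.0499, 0.00341 to 0.177, lost without any 1 of the 6 libraries) and, lower, Trp53i11 (-0.57 ± 0.10, adjusted p = 0.00480). Gdf15 had 1.97, 3.17 and 2.28 FPKM on day 10, against 0.747, 0.848 and 1.35 FPKM on day 8. Mdm2, the ubiquitin ligase that restrains p53, was not called (0.41 ± 0.14, adjusted p = 0.0942). Of 23 apoptosis regulators 1 was higher and 2 were lower, where 5.20% and 3.24% of all genes were. Without 1 library none was higher and 0 to 1 lower. Mcl1 was higher (0.31 ± 0.08, adjusted p = 0.0281, 0.00373 to 0.106), and Bmf (-0.73 ± 0.19, adjusted p = 0.0360, 0.00939 to 0.133) and Casp9 (-0.41 ± 0.11, adjusted p = 0.0351, 0.00440 to 0.113) were lower. Mcl1 restrains mitochondrial apoptosis, Bmf promotes it and Casp9 carries it out. Mcl1 and Casp9 lost their calls without any 1 of the 6 libraries, and Bmf without any 1 except day 10 replicate 2.

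Of 14 primed pluripotency genes 8 were lower, 6 were not called and none was higher (median -0.59), with 6 to 7 lower without 1 library. Of 26 core and naive genes 2 were higher and 3 lower (median -0.04), where 5.20% and 3.24% of all genes were. Without 1 library 0 to 1 were higher and 2 to 3 lower. Otx2, the factor that drives the step from naive to primed cells, had 3.06, 2.37 and 2.62 FPKM on day 10, against 5.16, 4.77 and 4.89 FPKM on day 8 (-0.78 ± 0.10, adjusted p = 0.000560), after 12.4 FPKM on day 0. Pou3f1 (Oct6) had 12.0, 10.4 and 12.9 FPKM on day 10, against 21.0, 24.5 and 20.6 FPKM on day 8 (-0.88 ± 0.15, adjusted p = 0.00392). Sox3, a SoxB1 factor, had 2.72, 2.58 and 3.64 FPKM on day 10, against 4.70, 7.21 and 6.07 FPKM on day 8 (-0.89 ± 0.15, adjusted p = 0.00302). The 3 factors had no library of day 10 as high as any of day 8. Fgf5, the growth factor that marks primed epiblast, was low on both days, at 0.112, 0.0733 and 0.250 FPKM on day 10 and 0.492, 0.676 and 0.471 FPKM on day 8 (-0.70 ± 0.17, adjusted p = 0.0254, 0.0128 to 0.0916 over the settings). Its call was lost without any 1 library except day 10 replicate 3, and with the 6 libraries alone (adjusted p = 0.0712).

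The de novo DNA methylation enzymes, which the primed state also carries, were lower. Dnmt3b had 44.3, 46.0 and 45.4 FPKM on day 10, against 73.2, 72.6 and 75.7 FPKM on day 8 (-0.70 ± 0.15, adjusted p = 0.0126), after 134 FPKM on day 0. The cofactor Dnmt3l had 75.2, 79.6 and 72.2 FPKM on day 10, against 109, 107 and 106 FPKM on day 8 (-0.50 ± 0.06, adjusted p = 0.000560). Dnmt3a had 9.53, 9.74 and 9.26 FPKM on day 10, against 13.7, 13.5 and 15 FPKM on day 8 (-0.54 ± 0.13, adjusted p = 0.0228, 0.00230 to 0.0874), and its call was lost without any 1 of the 6 libraries. These were the 3 called genes of 10 in the DNA methylation list, whose other members had no call and whose median was 0.05. In the core network Sox2 had 133, 126 and 131 FPKM on day 10, against 164, 169 and 176 FPKM on day 8 (-0.39 ± 0.09, adjusted p = 0.0188, 0.00230 to 0.0747), with a call that held only without day 8 replicate 1 among the 6 settings that leave out a library. Dppa2 was higher (0.40 ± 0.09, adjusted p = 0.0153, 0.00222 to 0.0640), and so was its partner Dppa4 (0.30 ± 0.09, adjusted p = 0.0490, 0.0103 to 0.162). Dppa2 lost its call without day 8 replicates 1 or 3 or day 10 replicates 1 or 3, and Dppa4 without any 1 of the 6 libraries. Pou5f1 (-0.15 ± 0.09, adjusted p = 0.384) and Nanog (-0.14 ± 0.14, adjusted p = 0.623) were not called.

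Of 12 germline genes 3 were higher and none lower (median 0.40), with 1 to 3 higher without 1 library. Taf7l, a germ cell form of a TFIID subunit, had 2.06, 1.63 and 1.88 FPKM on day 10, against 0.685, 1.13 and 0.590 FPKM on day 8 (0.88 ± 0.16, adjusted p = 0.00561). Ddx4 (Vasa), a germ cell RNA helicase, had 17.8, 17.8 and 14.7 FPKM on day 10, against 11.7, 12.3 and 11.5 FPKM on day 8 (0.48 ± 0.11, adjusted p = 0.0167, 0.00992 to 0.0716). Hormad1, a protein of the meiotic chromosome axis, changed by 0.55 ± 0.15 (adjusted p = 0.0438, 0.0160 to 0.172). Ddx4 lost its call without day 8 replicates 1 or 3 or day 10 replicates 1 or 2, and Hormad1 without any 1 except day 10 replicate 3. Of 23 imprinted genes 3 were lower and none higher (median -0.09), namely Cdkn1c, the growth factor receptor adaptor Grb10 (-0.81 ± 0.12, adjusted p = 0.00115) and Phlda2, a restraint on placental growth. Phlda2 had 59.3, 56.7 and 55.2 FPKM on day 10, against 111, 105 and 99.3 FPKM on day 8 (-0.88 ± 0.16, adjusted p = 0.00558), with 135 FPKM on day 0.

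Of 22 glycolytic genes 10 were lower and 1 higher, with a median of -0.32. On day 8, 12 of the 22 had been lower than on day 0, and 8 of the 10 are among these 12. Aldoa, the main aldolase, had 314, 330 and 325 FPKM on day 10, against 497, 523 and 497 FPKM on day 8 (-0.65 ± 0.08, adjusted p = 0.000654). Pgk1, phosphoglycerate kinase, had 87.8, 88.9 and 90.3 FPKM on day 10, against 139, 138 and 142 FPKM on day 8 (-0.65 ± 0.08, adjusted p = 0.000422), after 370 FPKM on day 0. Pfkl, the liver form of phosphofructokinase, had 27.1, 31.4 and 33.8 FPKM on day 10, against 57.1, 59.4 and 55.2 FPKM on day 8 (-0.89 ± 0.12, adjusted p = 0.000904). These and the lactate exporter Slc16a3 given above had all day 10 libraries below all day 8 libraries. Aldoc, another aldolase, changed by -0.56 ± 0.11 (adjusted p = 0.00869). Ldha, lactate dehydrogenase, had 284, 264 and 278 FPKM on day 10, against 363, 414 and 369 FPKM on day 8 (-0.47 ± 0.10, adjusted p = 0.0148, 0.000443 to 0.0624), with a call lost without day 8 replicate 2 or day 10 replicate 2. The 1 higher member, named after its values were seen, was the muscle phosphofructokinase Pfkm with 22.4, 23.1 and 19.7 FPKM on day 10, against 16.6, 16.3 and 16.1 FPKM on day 8 (0.40 ± 0.10, adjusted p = 0.0318, 0.00957 to 0.120). Its call was lost without any 1 library except day 10 replicate 3. Gapdh was not called (-0.15 ± 0.12, adjusted p = 0.528), but it has many near-identical pseudogenes and its values, 59.0 to 76.0 FPKM on day 10 and 69.2 to 76.2 FPKM on day 8 after 798 FPKM on day 0, are uncertain. Near-identical copies also exist for other genes of this list. Without any 1 of the 6 libraries 7 to 8 members were lower.

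Genes of the hypoxia response had 4 of 19 members lower and none higher (median -0.10), where 3.24% and 5.20% of all genes were. Without 1 library 2 to 4 were lower. P4ha1, a collagen prolyl hydroxylase, had 7.81, 6.51 and 7.53 FPKM on day 10, against 12.5, 10.6 and 11.3 FPKM on day 8 (-0.62 ± 0.09, adjusted p = 0.00123). Egln3, an oxygen sensor, changed by -0.54 ± 0.11 (adjusted p = 0.0103). Bnip3, a mitophagy receptor, had 10.5, 7.69 and 8.98 FPKM on day 10, against 15.8, 16.3 and 13.8 FPKM on day 8 (-0.73 ± 0.16, adjusted p = 0.0130, 0.00626 to 0.0621), with a call lost without day 8 replicates 1 or 2 or day 10 replicate 2. The remaining member, Ankrd37, changed by -0.71 ± 0.19 (adjusted p = 0.0366, 0.00923 to 0.145) and lost its call without any 1 except day 10 replicate 3 and with the 6 libraries alone (adjusted p = 0.0703). Of 35 respiratory chain genes none was called (median -0.02).

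Among 21 genes of the Atf4 response to amino acid shortage 5 were lower and 1 higher (median -0.06). Without 1 library 2 to 4 were lower and none higher. The arginine transporter Slc7a3 had 38.9, 33.9 and 37.7 FPKM on day 10, against 55.9, 49.9 and 50.5 FPKM on day 8 (-0.50 ± 0.08, adjusted p = 0.00217). Pycr1, which makes proline, changed by -0.68 ± 0.10 (adjusted p = 0.00136). The glutathione-degrading enzyme Chac1 changed by -0.73 ± 0.15 (adjusted p = 0.0114, 0.00544 to 0.0536), with a call lost without day 10 replicate 1. The serine synthesis enzymes Psat1 (-0.27 ± 0.06, adjusted p = 0.0191, 0.00664 to 0.0692) and Phgdh (-0.23 ± 0.06, adjusted p = 0.0361, 0.0121 to 0.116) were lower by less, and Shmt2, of the mitochondrial folate cycle, was higher (0.27 ± 0.07, adjusted p = 0.0390, 0.00762 to 0.128). Phgdh and Shmt2 lost their calls without any 1 of the 6 libraries, and Psat1 without day 8 replicates 1 or 2 or day 10 replicates 1 or 2.

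In lipid metabolism 4 of 14 genes of fatty acid synthesis and storage were lower and 1 was higher (median -0.02), with 2 lower and 1 higher without 1 library. The stearoyl-CoA desaturases that make monounsaturated fatty acids both fell. Scd2 had 44.1, 46.8 and 52.2 FPKM on day 10, against 86.4, 80.1 and 102 FPKM on day 8 (-0.90 ± 0.15, adjusted p = 0.00311), and Scd1 9.58, 10.5 and 9.57 FPKM on day 10, against 19.3, 15.8 and 20.0 FPKM on day 8 (-0.86 ± 0.14, adjusted p = 0.00244). The long-chain acyl-CoA synthetases Acsl3 (-0.38 ± 0.11, adjusted p = 0.0495, 0.0152 to 0.179) and Acsl4 (-0.63 ± 0.17, adjusted p = 0.0392, 0.00293 to 0.131) lost their calls without any 1 of the 6 libraries. Plin2, a coat protein of lipid droplets, went up, with 49.0, 48.4 and 44.7 FPKM on day 10, against 29.6, 32.1 and 28.6 FPKM on day 8 (0.65 ± 0.08, adjusted p = 0.000473). Of 23 cholesterol synthesis genes Ebp was higher (0.48 ± 0.09, adjusted p = 0.00722), and Fdps (-0.39 ± 0.10, adjusted p = 0.0354, 0.00701 to 0.126) and Dhcr7 (-0.47 ± 0.11, adjusted p = 0.0229, 0.00234 to 0.0863) were lower, the last 2 with calls lost without any 1 library.

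Of 26 lysosome genes 7 were higher and none lower (median 0.12). Sqstm1 (p62), an autophagy receptor, had 144, 136 and 133 FPKM on day 10, against 99.6, 102 and 95.6 FPKM on day 8 (0.47 ± 0.07, adjusted p = 0.00210). Grn, progranulin, had 38.6, 40.5 and 40.2 FPKM on day 10, against 29.7, 29.8 and 28.4 FPKM on day 8 (0.43 ± 0.07, adjusted p = 0.00213). Both passed in every setting with no overlap between the days, while Ctsd, cathepsin D (0.33 ± 0.08, adjusted p = 0.0269, 0.00263 to 0.110), and Cln3 (0.42 ± 0.11, adjusted p = 0.0324, 0.0219 to 0.119) were lost without any 1 of the 6 libraries, and the peptidase Tpp1 (0.33 ± 0.08, adjusted p = 0.0181, 0.00413 to 0.0630) without day 8 replicates 1 or 2 or day 10 replicates 1 or 2. Without any 1 of the 6 libraries 3 to 4 members of the list were higher.

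Genes of adhesion, matrix and secretion leaned upwards. Of 26 basement membrane and integrin genes 5 were higher and none lower (median 0.33, with 24 of 26 above 0), and 2 to 4 were higher without 1 library. Of 21 secretory and senescence-linked factors 7 were higher and 3 lower (median 0.30). Without 1 library 5 were higher and 1 to 3 lower. Plaur, the urokinase receptor, had 86.9, 81.8 and 71.1 FPKM on day 10, against 33.4, 34.7 and 32.8 FPKM on day 8 (1.23 ± 0.09, adjusted p = 1.35e-05). Igfbp7, an insulin-like growth factor binding protein, had 6.34, 7.48 and 7.74 FPKM on day 10, against 2.91, 2.64 and 2.36 FPKM on day 8 (1.29 ± 0.21, adjusted p = 0.00216). Hbegf, an EGF receptor ligand, had 27.1, 25.2 and 21.0 FPKM on day 10, against 12.1, 11.7 and 13.9 FPKM on day 8 (0.93 ± 0.15, adjusted p = 0.00294). In all 3 the day 10 libraries stood apart above those of day 8. Mmp14, a membrane matrix metalloproteinase, changed by 0.82 ± 0.14 (adjusted p = 0.00278), and its inhibitor Timp3 by 0.88 ± 0.10 (adjusted p = 0.000320). The 3 lower factors, named after their values were seen, were Serpine2 (-0.76 ± 0.10, adjusted p = 0.000854), Mmp2 (-0.67 ± 0.15, adjusted p = 0.0159, 0.00369 to 0.0727) and Igfbp2 (-0.50 ± 0.12, adjusted p = 0.0245, 0.00111 to 0.0954). Mmp2 lost its call without day 8 replicate 1 or day 10 replicate 2, and Igfbp2 without any 1 except day 8 replicate 3.

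Sparc, a matrix glycoprotein, had 343, 332 and 329 FPKM on day 10, against 218, 222 and 211 FPKM on day 8 (0.62 ± 0.13, adjusted p = 0.0115). Its libraries differed by far less within a day than between days. Itgb4 (0.99 ± 0.22, adjusted p = 0.0172, 0.000957 to 0.0648) and Itga5 (0.71 ± 0.15, adjusted p = 0.0138, 0.00169 to 0.0574), integrin chains for laminin and fibronectin, and the type IV collagen chain Col4a2 (0.71 ± 0.17, adjusted p = 0.0212, 0.00942 to 0.0856) were higher with less stable calls. Itgb4 and Col4a2 were called only without day 8 replicate 3 among the settings that leave out a library, and Itga5 was lost without day 8 replicates 2 or 3 or day 10 replicate 3. Thbs1, thrombospondin 1, one of the genes that had risen most by day 8 (2.85 against day 0), was at 69.7, 70.8 and 66.6 FPKM on day 10 and 41.4, 29.1 and 40.9 FPKM on day 8 and was not called (0.90 ± 0.34, adjusted p = 0.127). Its groups did not overlap, and the missed threshold does not show that the rise stopped.

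Cytoskeletal genes went different ways. Among 20 fibroblast and smooth muscle markers 5 were higher and 3 lower (median 0.12), 2 to 3 and 1 to 2 without 1 library, and among 25 Srf and Yap target genes 6 were higher and 1 lower (median 0.25). Vim, vimentin, had 504, 520 and 533 FPKM on day 10, against 345, 324 and 343 FPKM on day 8 (0.62 ± 0.11, adjusted p = 0.00413), after 82.0 FPKM on day 0 and 134 FPKM on day 4. Cnn1, the smooth muscle calponin, did the opposite, with 12.4, 14.5 and 12.8 FPKM on day 10, against 23.6, 25.1 and 26.3 FPKM on day 8 (-0.89 ± 0.12, adjusted p = 0.000897), close to its 10.2 FPKM on day 0. Acta2, smooth muscle actin, had 171, 172 and 178 FPKM on day 10, against 111, 113 and 116 FPKM on day 8 (0.61 ± 0.15, adjusted p = 0.0267, 0.000312 to 0.0867), after 19.1 FPKM on day 0. Vim and Acta2 were higher and Cnn1 lower in every day 10 library than in any of day 8, yet the call of Acta2 was lost without any 1 of the 6 libraries. With the 6 libraries alone, where the spread of the other days does not enter, Acta2 was called. Myl9, a myosin light chain (0.65 ± 0.15, adjusted p = 0.0167, 0.00413 to 0.0695), Actg2, enteric actin (1.00 ± 0.26, adjusted p = 0.0311, 0.0112 to 0.193), and the calcium-binding S100a6 (0.70 ± 0.15, adjusted p = 0.0138, 0.00348 to 0.0647) were higher. Myl9 lost its call without day 8 replicates 1 or 3 or day 10 replicates 2 or 3, Actg2 without any 1 library and S100a6 without day 8 replicate 2 or day 10 replicate 1. The fibroblast markers Thy1 (-0.54 ± 0.15, adjusted p = 0.0467, 0.0208 to 0.180) and Col1a2 (-0.51 ± 0.13, adjusted p = 0.0339, 0.0221 to 0.123), named after their values were seen, were lower. Thy1 lost its call without any 1 library except day 10 replicate 1 and Col1a2 without any 1.

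Of the Srf and Yap targets, Ccn2 (CTGF) had 118, 111 and 115 FPKM on day 10, against 68.2, 76.3 and 65.7 FPKM on day 8 (0.70 ± 0.19, adjusted p = 0.0349, 0.000871 to 0.114), and the receptor kinase Axl had 11.2, 11.4 and 10.4 FPKM on day 10, against 5.93, 6.36 and 6.58 FPKM on day 8 (0.76 ± 0.19, adjusted p = 0.0247, 0.000965 to 0.0890). Both calls were lost without any 1 of the 6 libraries, and without any 1 of them 0 to 2 of the 25 were higher. By contrast 4 of 17 immediate early and AP-1 genes were lower and none higher (median -0.02), with 1 to 2 lower without 1 library. Beside Egr1 the lower genes were Fos, with 5.25, 5.38 and 4.79 FPKM on day 10, against 11.6, 13.3 and 10.6 FPKM on day 8 (-1.13 ± 0.25, adjusted p = 0.0167, 0.000719 to 0.0628), Jun, with 17.5, 17.7 and 15.1 FPKM on day 10, against 21.3, 23.0 and 22.9 FPKM on day 8 (-0.41 ± 0.11, adjusted p = 0.0331, 0.0104 to 0.122), and Atf3, with 3.47, 4.44 and 4.1 FPKM on day 10, against 6.28, 8.16 and 6.30 FPKM on day 8 (-0.72 ± 0.20, adjusted p = 0.0441, 0.00997 to 0.159). Jun and Atf3 lost their calls without any 1 of the 6 libraries and Fos without any 1 except day 8 replicate 3. Immediate early genes are known for answering within minutes to serum and growth factors.

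Among markers of other cells, Esx1, a homeobox gene of trophoblast, had 6.15, 6.93 and 7.09 FPKM on day 10, against 2.79, 2.80 and 2.00 FPKM on day 8 (1.26 ± 0.12, adjusted p = 8.56e-05), with 2.64 FPKM on day 0 and 2.78 FPKM on day 4, so that its rise was not seen before day 8. Krt7, a simple epithelial keratin, changed by 0.61 ± 0.10 (adjusted p = 0.00341), and Gata3, a trophoblast factor, by 0.72 ± 0.15 (adjusted p = 0.0130, 0.00533 to 0.0541, lost without day 8 replicates 1 or 2). In the same list of 15, Tfap2c (-0.52 ± 0.11, adjusted p = 0.0122, 0.00597 to 0.0554, lost without day 8 replicate 1 or day 10 replicate 2) and Fgfr2 (-0.35 ± 0.10, adjusted p = 0.0485, 0.00630 to 0.147, lost without any 1 library), both of the trophoblast lineage, were lower, and the median was 0.30. The abundant Krt8 (0.40 ± 0.15, adjusted p = 0.140) and Krt18 (0.26 ± 0.10, adjusted p = 0.158) were not called. Of 15 endoderm markers tested Col4a2 and Sparc were higher, which are matrix genes of many cells, and the median was 0.03. Of 11 mesoderm markers Msx2 was higher (0.74 ± 0.17, adjusted p = 0.0187, 0.00867 to 0.0804, lost without day 8 replicate 3 or day 10 replicates 2 or 3). Of 7 neuroectoderm markers Tubb3 was lower (-0.38 ± 0.09, adjusted p = 0.0233, 0.00301 to 0.0901, lost without any 1 except day 8 replicate 3). Of 6 blood and endothelial markers Cd68, a lysosomal protein of macrophages (0.72 ± 0.13, adjusted p = 0.00491), and Pecam1, which ES cells also express (0.65 ± 0.15, adjusted p = 0.0175, 0.000774 to 0.0692, lost without any 1 except day 8 replicate 1), were higher.

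In the Wnt list of 16 genes 2 were higher and 4 lower (median 0.12), where 5.20% and 3.24% of all genes were. Beside Wnt3a, Notum, a secreted Wnt inhibitor, had 28.9, 27.0 and 27.8 FPKM on day 10, against 13.1, 13.6 and 11.4 FPKM on day 8 (1.11 ± 0.17, adjusted p = 0.00164). The overlapping Notumos had a like change (1.06 ± 0.25, adjusted p = 0.0234, 0.00193 to 0.0896, lost without day 8 replicates 1 or 3 or any day 10 library). The strand setting of the counting is not given in the sources used here, so reads of these neighbours cannot be told apart. Lef1, a nuclear effector of Wnt and also in the primed list, had 1.04, 1.02 and 1.21 FPKM on day 10, against 2.51, 3.00 and 2.97 FPKM on day 8 (-1.07 ± 0.16, adjusted p = 0.00165). Its relative Tcf7 (-0.40 ± 0.10, adjusted p = 0.0285, 0.00340 to 0.0941), the antagonist Nkd2 (-0.61 ± 0.16, adjusted p = 0.0367, 0.0161 to 0.125) and the ligand Wnt8a (-0.91 ± 0.19, adjusted p = 0.0101) were lower too, Tcf7 and Nkd2 with calls lost without any 1 of the 6 libraries and Nkd2 also with these 6 alone (adjusted p = 0.0526).

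Retinoic acid genes also split, with 3 of 12 higher and 3 lower (median 0.16). Stra8, a germ cell gene induced by retinoic acid, had 6.62, 6.62 and 7.12 FPKM on day 10, against 2.65, 2.35 and 2.78 FPKM on day 8 (1.24 ± 0.15, adjusted p = 0.000490). The receptor Rarb was also higher, at under 1 FPKM in every library (0.67 ± 0.15, adjusted p = 0.0175, 0.00421 to 0.0686), which lost its call without day 8 replicate 2 or day 10 replicate 3 and with the 6 libraries alone (adjusted p = 0.0686). The proteins that bind retinoic acid in the cell were lower. Crabp2 had 6.58, 8.60 and 8.04 FPKM on day 10, against 15.7, 17.5 and 13.6 FPKM on day 8 (-0.97 ± 0.13, adjusted p = 0.00102), and Crabp1 4.20, 3.66 and 3.90 FPKM on day 10, against 10.4, 8.74 and 8.07 FPKM on day 8 (-1.11 ± 0.19, adjusted p = 0.00341). Aldh1a2, which makes retinoic acid, changed by -0.48 ± 0.11 (adjusted p = 0.0163, 0.00960 to 0.0595), with a call lost without day 8 replicate 2 or day 10 replicates 1 or 2.

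In the TGF-beta and Nodal list of 25 genes 3 were higher, among them Tgfbr2 and the activin subunit Inhbb, and Lefty1 was lower (median 0.06). Inhbb had 8.48, 7.24 and 7.94 FPKM on day 10, against 4.16, 3.98 and 3.49 FPKM on day 8 (0.94 ± 0.18, adjusted p = 0.00690). In the Erk and Fgf list of 17, Phlda1, which Erk signalling induces, had 39.2, 35.4 and 34.6 FPKM on day 10, against 17.0, 21.1 and 19.2 FPKM on day 8 (0.91 ± 0.12, adjusted p = 0.000560), the Ets factor Etv1 changed by 0.74 ± 0.15 (adjusted p = 0.00980), Fgfr2 was lower and the median was 0.10. Of 14 LIF and Stat3 genes Bcl3 was higher (0.43 ± 0.11, adjusted p = 0.0244, 0.00316 to 0.0868), and Pim1 (-0.38 ± 0.11, adjusted p = 0.0416, 0.00341 to 0.135) was lower together with its relative Pim2. Bcl3 and Pim1 lost their calls without any 1 of the 6 libraries. Csf1, a macrophage growth factor that had risen by 2.93 between day 0 and day 8, was at 21.4, 20.8 and 21.5 FPKM on day 10 and 12.7, 12.8 and 13.9 FPKM on day 8 and was not called (0.67 ± 0.23, adjusted p = 0.0942). The groups did not overlap in Csf1, and its missed threshold does not show that the rise stopped. Of 20 interferon genes Bst2 (-0.60 ± 0.11, adjusted p = 0.00662) and Ifitm1 were lower. Ifitm1 had 120, 121 and 120 FPKM on day 10, against 222, 211 and 204 FPKM on day 8 (-0.82 ± 0.18, adjusted p = 0.0154, 0.000194 to 0.0609), with a call lost without day 8 replicate 1 or day 10 replicates 1 or 2.

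Few genes of the basic machinery were called. No member was called among 18 chaperones of the endoplasmic reticulum (median -0.05), 14 cytosolic heat shock genes (-0.02) or the 1 gene of the 2-cell stage that was tested. Of 28 nucleolar genes Npm1 was lower (-0.30 ± 0.07, adjusted p = 0.0269, 0.00618 to 0.189), and of 24 splicing regulators the kinase Clk1 was higher (0.61 ± 0.14, adjusted p = 0.0198, 0.00670 to 0.0871) and Srsf9 lower (-0.37 ± 0.10, adjusted p = 0.0451, 0.0101 to 0.161). Npm1 and Srsf9 lost their calls without any 1 of the 6 libraries, and Clk1 without day 8 replicates 1 or 3 or day 10 replicate 1. In the Myc and Max network of 12 genes Mycl alone was called, while Mycn was not (-0.26 ± 0.10, adjusted p = 0.140). The 76 ribosomal protein genes leaned down, with a median of -0.22 and 4 of 76 above 0, but only Rps10 (-0.55 ± 0.12, adjusted p = 0.0164, 0.00161 to 0.0759) and Rpl29 (-0.31 ± 0.09, adjusted p = 0.0446, 0.0282 to 0.261) were called. Rps10 lost its call without day 8 replicate 3 or day 10 replicates 1 or 3, and Rpl29 without any 1 except day 10 replicate 2. Fitted with the 6 libraries of day 8 and day 10 alone, 46 of the 76 were called lower. Ribosomal protein genes have many processed copies, so their values are uncertain.

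**Figure D5:**
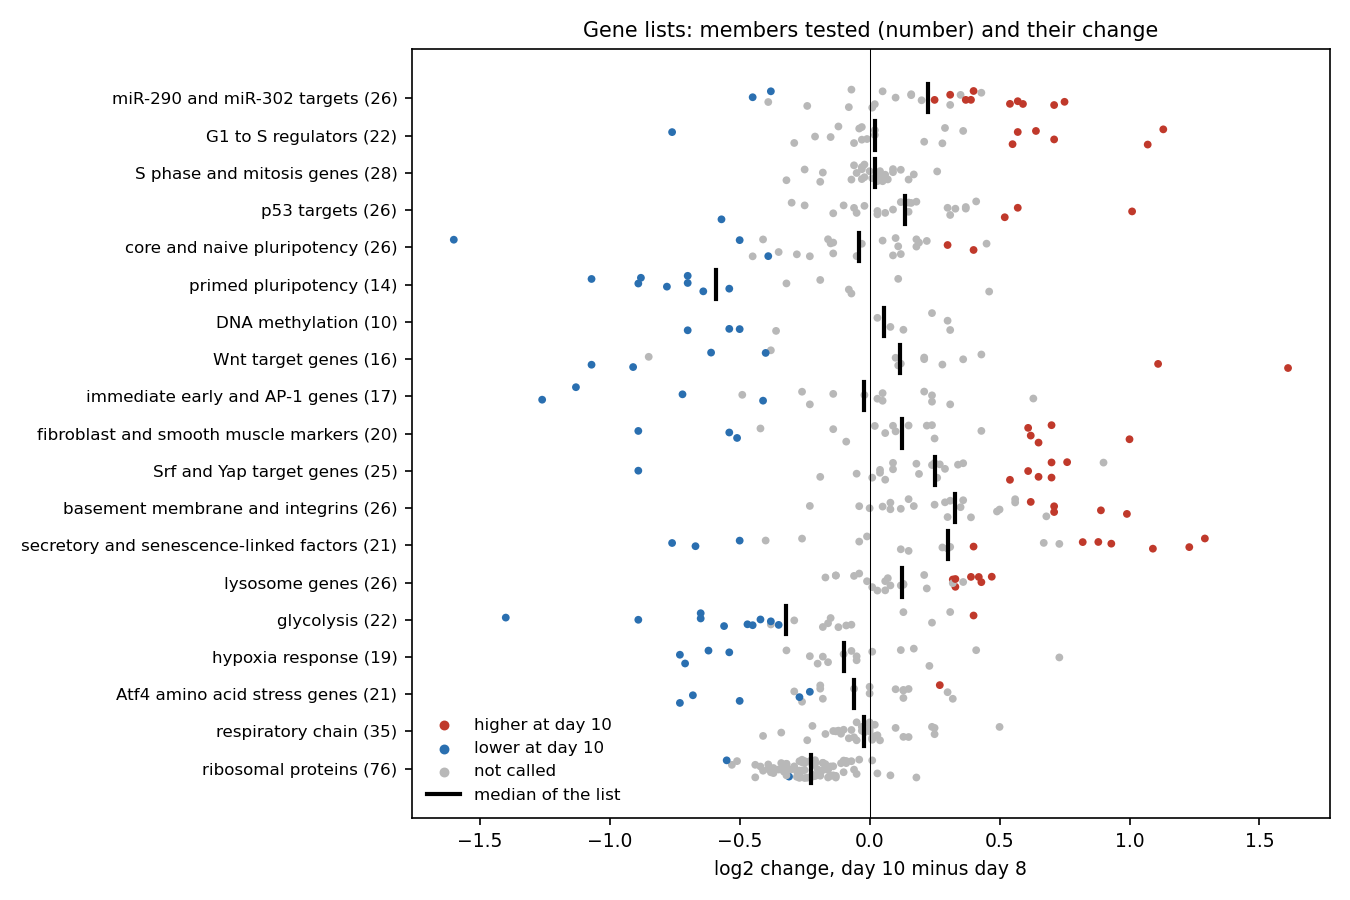
Change between day 8 and day 10 (log2 scale, horizontal axis) of each tested member of 19 gene lists, with red points higher on day 10, blue points lower on day 10, grey points not called, and a black bar at each list's median. The medians run between -0.59 for the primed pluripotency genes and 0.33 for the basement membrane and integrin genes, beside 0.02 for all genes.

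Calls were also counted by class of gene. Of 1145 lncRNAs tested 35 were higher and 12 lower (4.1%), against 759 and 489 of 12823 protein-coding genes (9.73%), and the difference in share was not tested. Of 113 lincRNAs that the authors' table names by number, 8 were higher and 2 lower (8.85%). Among 17 lncRNAs followed by name 3 were higher. Neat1, the scaffold of paraspeckles, had 6.64, 5.93 and 5.56 FPKM on day 10, against 3.22, 3.01 and 3.59 FPKM on day 8 (0.79 ± 0.21, adjusted p = 0.0365, 0.00260 to 0.125). Tug1 (0.37 ± 0.10, adjusted p = 0.0415, 0.00990 to 0.149) and the miR-22 host Mir22hg (0.84 ± 0.23, adjusted p = 0.0384, 0.0184 to 0.142) were higher as well. Neat1 and Tug1 lost their calls without any 1 of the 6 libraries, and Mir22hg without any 1 except day 8 replicate 1. Malat1, an abundant nuclear lncRNA, was at 55.0, 40.7 and 32.6 FPKM on day 10 and 28.3, 25.3 and 36.7 FPKM on day 8, where the groups overlapped (0.48 ± 0.42, adjusted p = 0.578).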

How the data were processed

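Polyadenylated RNA was sequenced as directional paired-end libraries with reads of 100 bases, per the labels' protocols. The authors deposited an FPKM value for each of 38123 genes, per the file headers, 36253 of them with a symbol. The mouse build mm9 and the programs TopHat2 2.0.9 and Cufflinks 1.3.0 are named in the submitters' processing notes. Not given in the sources used here are the annotation, strand setting and handling of multiply matching reads. An FPKM value is relative to its own library, and read totals were not used here, so no counting interval is given and depth was judged only from steps between values under 0.1 FPKM.

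Values were tested as log2(FPKM + 0.5) with limma 3.58.1 (R 4.3.3, eBayes with a trend) in 1 fit that gave each day of the 15 whole cell libraries its own mean, for genes whose mean reached 0.5 FPKM on 1 day or more. P-values were adjusted by Benjamini-Hochberg over all 15991 genes at 0.05. Folds on this scale understate changes of low genes. On 1 simulated data set for day 10 against day 8 (15991 genes), 80% of genes changed by 1 and 99% of those changed by 2 (log2) were recovered. There were 11 false among 190 calls. The changed genes were drawn from those above 1 on this log2 scale on day 8, and the noise was normal with each gene's own SD. Called genes in the real data had median changes of 0.66 and -0.56, so these rates do not cover smaller changes or genes near the filter.

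The comparison, the 43 gene lists and the genes followed were chosen with earlier results of these data known. The rule named Dicer1, the 12 largest rises and 12 largest falls among called genes with at least 2 FPKM on 1 day, no overlap between libraries and a unique symbol that is no predicted model or pseudogene, the 6 largest that turned back each way, the 4 largest changes of pace each way, up to 6 called members a list (for lists with fewer than 3, up to 4 by level) and 28 followed genes. Some genes that the rule named are not reported here. GENCODE M21 (GRCm38) gave, by gene identifier, the class, position and 3′ UTR of each gene. The settings tried besides were no filter, a filter at 1 FPKM, pseudocounts of 0.1 and 1, quantile normalization, median-of-ratios scaling, a block for the replicate number, the 6 libraries alone, the fit without the libraries labelled day 12, protein-coding genes and lncRNAs alone, and each of the 6 libraries left out. Python 3.11.15, numpy 2.4.6, pandas 2.3.3, scipy 1.17.1 and matplotlib 3.10.9 were used.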

Additional observations from a re-analysis of the deposited data

Results flagged for a closer look

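Of the genes open to naming, 8 had the largest called differences between the change per day from day 8 to day 10 and that from day 4 to day 8, by limma's test of the difference itself over all 15991 genes, with 2.09% of genes called. Values are the late minus the early log2 change per day ± SE. Actc1 turned from a rise to a fall (-1.18 ± 0.14, adjusted p = 0.00127), as did Egr1 (-1.04 ± 0.13, adjusted p = 0.00194) and Il33 (-0.96 ± 0.11, adjusted p = 0.000850). Pga5 had changed little before day 8 and then fell (-0.97 ± 0.10, adjusted p = 0.000409). In the other direction Rhd had fallen before day 8 and then rose (0.73 ± 0.09, adjusted p = 0.00158), while Pla2g7 (0.82 ± 0.08, adjusted p = 0.000409), Robo4 (0.72 ± 0.11, adjusted p = 0.00632) and Pglyrp1 (0.71 ± 0.16, adjusted p = 0.0363) gained pace. The pace call of Pglyrp1 was lost with no filter, with the replicate block, without the libraries labelled day 12 and without any 1 of the 6 libraries except day 10 replicate 2, with an adjusted p of up to 0.170. The other 7 passed in all 15 settings that give a change of pace, which the 6 libraries alone do not. None of these settings left out a day 4 library.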

How the results depend on the processing

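No called gene changed sign in any of the 16 settings, but counts depended on which libraries were used. Fitted with the 6 libraries of day 8 and day 10 alone, 1663 genes were higher and 1171 lower, and 143 and 153 of the listed genes. Quantile normalization gave 779 lower genes. Without 1 library, 415 to 557 genes were higher and 236 to 275 lower, with 34 to 41 and 39 to 47 of the listed genes. The 334 changes of pace were 211 with the replicate block, 190 without the libraries labelled day 12 and 85 to 199 without 1 library. Same-numbered libraries of day 10 and day 8 correlated at -0.05, -0.053 and 0.014 in their deviations, so no shared spread by number was seen. That cannot tell whether the numbers mark paired cultures. The block is therefore given only as an alternative, with 672 genes higher and 369 lower.

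Without 1 library, 239 to 299 of the genes higher on day 8 went on and 31 to 44 turned back. Of those lower on day 8, 72 to 97 went on (336 after quantile normalization, 101 without the libraries labelled day 12) and 15 to 34 turned back (62 and 24), with 2488 not called further after quantile normalization. Of the genes higher on day 4, 70 to 85 went on and 6 to 10 turned back without 1 library, and 8 turned back without the libraries labelled day 12. With protein-coding genes and lncRNAs alone 106 of them went on, 8 turned back and 212 were not called further. Of the genes lower on day 4, 16 to 20 went on without 1 library, 75 after quantile normalization, 19 with the replicate block and 19 without the libraries labelled day 12. For these, 435 were not called further after quantile normalization and 158 with protein-coding genes and lncRNAs alone. Those that turned back were 2 to 6 without 1 library, 7 with no filter, 22 after quantile normalization, 4 with the replicate block, 4 without the libraries labelled day 12 and 5 with protein-coding genes and lncRNAs alone. The cause of these shifts was not tested, beyond the smaller number of libraries or genes where a setting leaves some out.

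Of the 157 called genes among the 225 named, 81 passed in every setting. Calls lost were 54 to 67 without 1 library, 30 without the libraries labelled day 12, 29 with no filter, 22 with the replicate block, 15 after median-of-ratios scaling, 14 with a pseudocount of 0.1, 13 after quantile normalization, 4 with the 6 libraries alone and 3 with a pseudocount of 1. Genes near 0.5 FPKM have few reads behind them, and FPKM alone gives no interval for them.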

Other observations

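Several abundant genes outside the naming rule or the lists moved clearly between day 8 and day 10, and the ones below were picked after their values were seen. Trh, the precursor of thyrotropin-releasing hormone, had 171, 157 and 171 FPKM on day 10, against 448, 462 and 400 FPKM on day 8 (-1.39 ± 0.11 on the log2 scale, limma adjusted p = 1.35e-05), after means of 437 FPKM on day 0 and 317 FPKM on day 4. Gsto1, a glutathione transferase of the omega class, had 189, 187 and 176 FPKM on day 10, against 77.7, 82.0 and 75.6 FPKM on day 8 (1.23 ± 0.14, adjusted p = 0.000319). Capns1, the small subunit of the calpain proteases, had 352, 365 and 367 FPKM on day 10, against 179, 203 and 186 FPKM on day 8 (0.93 ± 0.08, adjusted p = 3.02e-05), after 123 FPKM on day 0 and 174 FPKM on day 4. Upp1, uridine phosphorylase, had 83.5, 76.3 and 79.0 FPKM on day 10, against 143, 142 and 136 FPKM on day 8 (-0.82 ± 0.07, adjusted p = 5.09e-05), after 216 and 200 FPKM on days 0 and 4. In all 4 genes the day 10 and day 8 libraries stood apart, and the calls passed in all 16 settings.

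Some entries of the authors' table may cover the same stretch of RNA, in which case their calls are not separate results. This was judged from like values or a neighbouring place, and the place of linc1317 was not checked. The lincRNA that the table names linc1317 had 6.58, 5.87 and 5.49 FPKM on day 10, against 3.20, 3.00 and 3.53 FPKM on day 8, nearly the values of Neat1. Beside Notum and Notumos, the neighbouring antisense entry Myadml2os had 15.3, 18.3 and 16.6 FPKM on day 10, against 8.23, 8.17 and 7.77 FPKM on day 8 (1.01 ± 0.23, adjusted p = 0.0174, 0.000458 to 0.0721 over the settings), with a call lost without any 1 of the 6 libraries except day 10 replicate 1.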
